A study of Drosophila melanogaster with 2 samples.

Results

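Trithorax group genes keep developmental genes active once they have been switched on, and many of them write, erase or respond to methyl groups on the tail of histone H3. The 8 genes described here were chosen by name and function from 13834 protein-coding genes, with earlier results of these data known. The genes trx (trithorax), trr (trithorax-related) and Set1 encode H3K4 methyltransferases, each the catalytic subunit of a separate complex of the COMPASS family. The gene ash1 encodes an H3K36 methyltransferase. Utx encodes an H3K27 demethylase that works in the Trr complex, and Kdm5, also known as lid or little imaginal discs, encodes an H3K4 demethylase. The product of ash2 is a subunit shared by the H3K4 methyltransferase complexes, and kis (kismet) encodes a chromatin remodeller of the CHD family.

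The data are peak lists from chromatin immunoprecipitation and sequencing (ChIP-seq) of MESR4, a protein with zinc fingers and a PHD finger. All material came from 1 transgenic line with GFP fused to the C terminus of MESR4, as whole embryos of both sexes aged 0 to 24 h. Chromatin was sonicated, with fragments of 200 to 800 bp per the labels, which is longer than most of the distances between summit and start given here. There was 1 group of 2 biological replicates, numbered 1 and 3, no untagged or untreated group, and hence no comparison between groups and no test. The submitters' free text describes both samples as input controls. Their antibody field gives MESR4 instead, and in the file listings another alignment serves as control for each replicate, so both were read as immunoprecipitates. Which antibody recognised the fusion was not stated in those labels. For replicate 1, for replicate 3 and for both together a list of 30000 summits was deposited. The thresholded list, kept by the authors for reproducible rank between replicates, held 6415 summits with signals from 176.1 to 3171. The read depth is unknown. Signal is the authors' enrichment value, on a scale set separately for each list, so replicates are compared by rank. In whole embryos, binding in fewer cells and weaker binding in each cell cannot be told apart.

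Genes were counted as having a promoter peak if any annotated transcription start site (TSS) had a thresholded summit no farther than 500 bp away. Of the 8 genes, 7 had one, against 42.6% of all protein-coding genes, and Set1 did not. These genes and the related genes below were chosen with earlier results of these data known. Their counts are therefore descriptions and not an unbiased comparison with all genes. Signals spanned a wide range, from 1104 at trx to 277.4 at Utx. The median of the 7 was 595.0, against 467.9 over the 5889 protein-coding genes with a promoter peak, whose quartiles were 321.8 and 682.1. Of the 7, 5 lay above that median and trr and Utx below it.

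**Figure D1:**
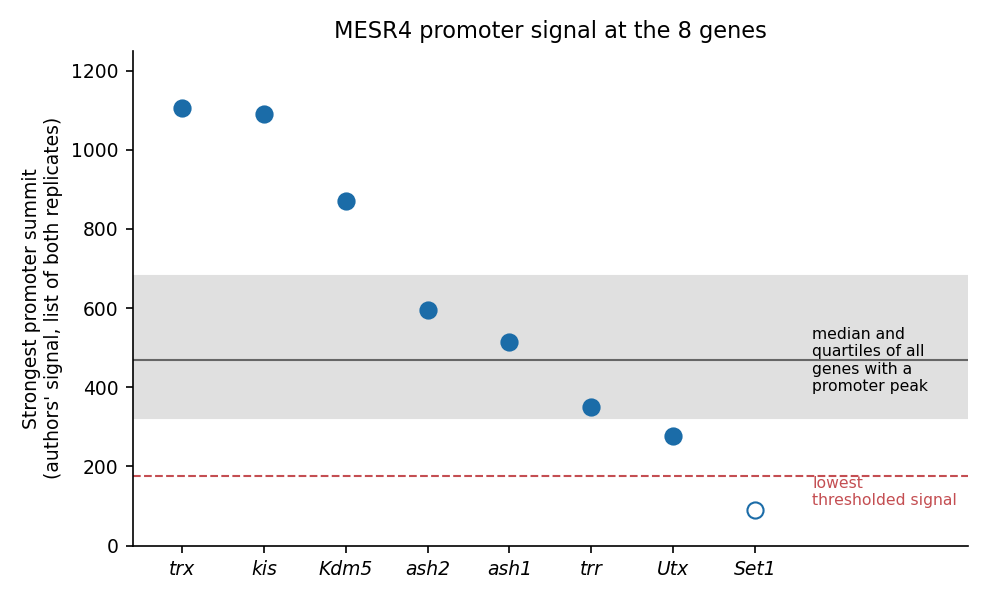
Signal of the strongest promoter summit (vertical axis, the authors' value in the list of both replicates) for each of the 8 genes; filled points are thresholded summits, the open point is below the threshold, the grey band and line are the quartiles and median of all genes with a promoter peak. The genes trx, kis and Kdm5 stand above the band, Utx below it, and Set1 at 91.3 below the lowest thresholded signal of 176.1.

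The bases just before the start site that carries the strongest peak are shown for each gene because each stretch holds the short motif CGATA. They are in order of signal, with Set1 last at its canonical start. Each sequence runs 5′ to 3′ on the strand of the gene and ends 1 base before the TSS. Sequences are from the release 6 genome of RefSeq, which has dm6 coordinates. Capitals mark CGATA (the core of the DNA replication-related element, DRE), the full DRE TATCGATA, the Motif 1 core GGTCACAC and the E-box CAGCTG, on either strand. The ash2 sequence fills the space up to the start of the divergent gene puf, and 300 bases are given for trr because its strongest summit lies among them.
trx (chr3R:14286904-14287023, minus strand): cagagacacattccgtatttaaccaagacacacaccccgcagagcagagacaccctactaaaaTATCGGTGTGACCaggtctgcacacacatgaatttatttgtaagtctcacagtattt
kis (chr2L:250824-250943, minus strand): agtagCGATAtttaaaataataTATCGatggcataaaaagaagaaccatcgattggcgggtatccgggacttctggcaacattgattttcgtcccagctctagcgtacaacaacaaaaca
Kdm5 (chr2L:5999502-5999621, minus strand): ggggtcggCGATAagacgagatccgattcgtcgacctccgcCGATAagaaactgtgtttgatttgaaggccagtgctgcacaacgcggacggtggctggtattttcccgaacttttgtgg
ash2 (chr3R:24650044-24650124, plus strand): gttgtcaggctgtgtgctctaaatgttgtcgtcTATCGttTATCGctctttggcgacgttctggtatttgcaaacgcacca
ash1 (chr3L:19598756-19598875, minus strand): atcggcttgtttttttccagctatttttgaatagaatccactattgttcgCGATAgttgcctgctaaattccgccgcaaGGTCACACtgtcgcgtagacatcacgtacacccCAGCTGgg
trr (chrX:1889951-1890250, minus strand): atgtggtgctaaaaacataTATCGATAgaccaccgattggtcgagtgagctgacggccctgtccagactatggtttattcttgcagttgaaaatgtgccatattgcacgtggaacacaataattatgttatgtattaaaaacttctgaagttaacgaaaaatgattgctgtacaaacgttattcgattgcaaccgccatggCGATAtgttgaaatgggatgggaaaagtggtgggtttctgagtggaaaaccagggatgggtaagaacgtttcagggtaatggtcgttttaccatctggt
Utx (chr2L:10278812-10278931, minus strand): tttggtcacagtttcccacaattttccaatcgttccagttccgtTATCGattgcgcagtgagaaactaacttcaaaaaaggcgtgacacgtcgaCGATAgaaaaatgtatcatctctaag
Set1 (chr3L:25108877-25108996, plus strand): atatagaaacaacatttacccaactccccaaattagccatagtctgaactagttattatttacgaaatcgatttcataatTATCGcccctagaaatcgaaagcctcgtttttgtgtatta

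CGATA was the one motif of the 7 searched that lay within 100 bp of the canonical TSS in 8 of 8 genes. It was found in 38.9% of 13833 protein-coding promoters with a canonical start, in 53.4% of those with a promoter peak and in 28.1% of those without one. Set1, which had no peak, also held it. The full DRE includes CGATA on both strands and was in none of the 8 windows, against 7.56% of all promoters. Of promoters with a peak 15.3% held the full DRE, and of those without 1.8%. Among the 31 partner and related genes described below, 6 held the full DRE and 19 held CGATA. One full DRE lies outside the trr window, in the sequence above, 281 bp before the trr TSS. It is nearer to the start of the divergent gene mRpL16, which is 306 bp from the trr TSS. The Motif 1 core was in 3 of the 8 windows, those of trx, ash1 and Kdm5, against 6.57% of all promoters, 14.05% of those with a peak and 1.03% of those without. At trx it occurred on both sides of the TSS and on opposite strands, starting 52 bp upstream and 17 bp downstream. At Kdm5 it started 32 bp downstream, so it is not among the bases shown, and at ash1 41 bp upstream. The E-box was in the ash1 window alone, against 13.9% of all promoters. The GAGA element GAGAG was in the Set1 window alone, against 22.5% of all promoters. The TATA box TATAAA was in the trx and Utx windows and the initiator core TCAGT in those of ash1 and ash2, against 28.7% and 42.9%. All these windows are at the TSS and not at the summit. Within 100 bp of the strongest summit CGATA was found at trr, ash1 and Utx, but not at trx, kis, Kdm5 or ash2. Over all thresholded summits 30.1% held it. The summit windows of kis and Kdm5 held none of the 7 motifs. Both strands were searched for every motif, and a match is a description of sequence and not evidence of a bound factor.

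The gene trx (FBgn0003862, chromosome 3R, 14263358 to 14286903, minus strand) carried the strongest peak of the 8. Its single annotated TSS serves 5 transcripts, and the summit at 14286789 lay 114 bp downstream, in the 5′ UTR. The signal was 1104, rank 272 in the list of both replicates. In replicate 1 the strongest promoter summit had a signal of 821.5 and rank 219, and in replicate 3 a signal of 282.0 and rank 554. Those summits lay 99 and 85 bp downstream, so the replicates differed by 14 bp in position. Among all genes with a promoter peak trx was number 352 of 5889, with 94.0% weaker. The genes next in signal were Pdss2 and Xe7 above it, at 1105.2 and 1105.1, and mus312 and CG42307 below it, at 1103.7 each from 1 shared summit.

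A further peak lay inside trx. The summit at 14283879 was in an intron, 3024 bp from the TSS, with a signal of 558.8 and rank 1789. It was the single thresholded summit in the body of any of the 8 genes outside the promoter windows. Replicate 1 had a summit 12 bp away with a signal of 464.7 and rank 1240, and replicate 3 one 29 bp away with a signal of 80.1 and rank 4944. The rank in replicate 3 was thus much lower than in replicate 1, while both were within the strongest 6415. Over the 590 thresholded summits farther than 500 bp from any TSS the median signal was 238.2, and 93.1% were weaker than the trx summit. The bases around this summit are given on the trx strand because they form the one thresholded site of the 8 genes away from a start site, and they hold none of the 7 motifs.
trx (chr3R:14283819-14283939, minus strand): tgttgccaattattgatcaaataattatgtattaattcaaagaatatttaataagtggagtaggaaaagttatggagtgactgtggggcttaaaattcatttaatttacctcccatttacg

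The gene kis (FBgn0266557, chromosome 2L, 210735 to 250823, minus strand) was nearly as strong as trx. Its summit at 250756 lay 67 bp downstream of the upstream TSS, just inside the first intron. The signal was 1091, rank 284. Replicate 1 gave a signal of 793.7 and rank 252, at 70 bp downstream, and replicate 3 a signal of 320.1 and rank 369, at 106 bp downstream. Of the 2 annotated starts, the upstream one serves 5 of 6 transcripts. The inner start at 221962, used by 1 transcript, had a summit 13 bp upstream with a signal of 61.7, rank 14019 and below the threshold. The long kis body (40089 bp) held 15 further summits in the list of both replicates, of which none passed the threshold and the strongest had a signal of 142.2.

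Kdm5 (FBgn0031759, chromosome 2L, 5989400 to 5999501, minus strand) followed them. Its summit at 5999353 lay 148 bp downstream of the first TSS, in the 5′ UTR, with a signal of 870.3 and rank 580. The ranks of the replicates were close to it, 624 in replicate 1 (signal 602.6) and 650 in replicate 3 (signal 266.9). The position differed more, at 159 bp downstream in replicate 1 and 64 bp in replicate 3. The first TSS serves 4 of 6 transcripts. The second, at 5997764, had a summit of 113.1, below the threshold, and the third, at 5996785, had no summit within 500 bp in the list of both replicates.

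The gene ash2 (FBgn0000139, chromosome 3R, 24650125 to 24653376, plus strand) had a signal of 595.0 and rank 1584, with ranks of 1557 in replicate 1 (signal 417.8) and 1640 in replicate 3 (signal 188.2). This summit does not belong to ash2 alone. At 24649939 it lay 186 bp upstream of the ash2 TSS and 104 bp from the TSS of puf, a ubiquitin protease gene that starts 82 bp away on the other strand. A second summit at 24650139, 14 bp downstream of the ash2 TSS, had a signal of 284.0 and rank 4363. The pair is 200 bp apart, and 681 of the 889 gaps of up to 500 bp between neighbouring thresholded summits were 190 to 210 bp (76.6%), with 199 bp the smallest gap in the list. Replicate 3 had a single summit between the pair, 84 bp upstream of the ash2 TSS. When each summit was counted for the nearest TSS alone, ash2 had the signal of 284.0. The inner starts of ash2, at 24651180 and 24651417, shared another summit at 24651308 with a signal of 197.1 and rank 5896. Replicate 1 had its nearest summit 12 bp away, ranked 5569, and replicate 3 had its nearest 11 bp away, ranked 8135 and outside its strongest 6415.

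The gene ash1 (FBgn0005386, chromosome 3L, 19590773 to 19598755, minus strand) had 1 TSS and 1 thresholded promoter summit, at 19598595 in the 5′ UTR, 160 bp downstream. Its signal was 515.6 and its rank 2039. The replicates placed the summit at the same base, 153 bp downstream, with rank 2619 in replicate 1 (signal 311.0) and rank 1079 in replicate 3 (signal 225.9). The peak thus stood higher in the order of replicate 3, whereas those of trx, kis and Kdm5 stood higher in that of replicate 1. Taf6, a TFIID subunit gene, starts 333 bp away on the other strand, and its TSS was 493 bp from the summit, so the summit is nearer to ash1. Replicate 3 had a further summit on the Taf6 side, 492 bp upstream of ash1, with a signal of 192.1 and rank 1586.

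The gene trr (FBgn0023518, chromosome X, 1881313 to 1889950, minus strand) starts next to mRpL16, a mitochondrial ribosomal protein gene whose TSS lies 306 bp away on the other strand. Around the trr TSS were 3 thresholded summits in 1 region of 1036 bp. The strongest, at 1890150, lay between the genes, 200 bp upstream of trr and 106 bp from the mRpL16 TSS, with a signal of 349.5 and rank 3544. The next, at 1889844, lay 106 bp inside trr with a signal of 348.8 and rank 3555, nearly equal to it. The third, at 1890382, lay 432 bp upstream of trr and inside mRpL16, with a signal of 213.1 and rank 5556. The replicates differed in which summit was strongest. Replicate 1 placed it 115 bp upstream of trr (signal 264.2, rank 3281) and replicate 3 placed it 104 bp downstream (signal 128.2, rank 3068). The position of the strongest trr summit relative to the TSS therefore depends on the replicate. It also depends on the assignment of summits, since the nearest-TSS rule left trr with the summit 106 bp downstream.

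Utx (FBgn0260749, chromosome 2L, 10272325 to 10278811, minus strand) had the weakest peak of the 7, with thresholded summits at the outer starts and none at the middle one. The summit at 10278670, in a coding exon 141 bp downstream of the first TSS, had a signal of 277.4 and rank 4447. The summit at 10276976, 185 bp downstream of the third TSS at 10277161, had a signal of 250.6 and rank 4878. The replicates ordered them differently. Replicate 1 had 211.3 (rank 4224) at the third start and 200.0 (rank 4497) at the first, and replicate 3 had 72.3 (rank 5420) at the first and 66.7 (rank 5747) at the third. The middle start, at 10277551, had no thresholded summit. The strongest below the threshold had a signal of 87.6, but lay 368 bp from this start and 22 bp from the third. The nearest, 23 bp away, had 63.2. Within 500 bp of the middle start, replicate 1 had a summit ranked 6045 and replicate 3 one ranked 6305. Both ranks fall within the rank limit used for each replicate alone. The summit of replicate 1 lay 397 bp away and 7 bp from the third start, and that of replicate 3 lay 28 bp away. Among all genes with a promoter peak, 17.4% were weaker than Utx. The next in signal were TTLL4B (277.7) and CG15771 (277.5) above it and CG3961 (277.3) and PICK1 (277.2) below it.

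Set1 (FBgn0040022, chromosome 3L, 25107594 to 25115180, plus strand), which encodes an H3K4 methyltransferase, had no thresholded summit at any of its 4 annotated starts or in the gene. The list of both replicates had a summit at 25109531, 253 bp downstream of the last start, with a signal of 91.3 and rank 10215. Replicate 1 had a summit at the same base (signal 75.4, rank 9431), and replicate 3 had its strongest at 25109442 (signal 29.7, rank 12140). All lay outside the strongest 6415 of their lists. These lists include background as well as peaks, so the Set1 summits cannot be told apart from background here. The start used by 6 of its 9 transcripts, at 25108997, had a summit of 36.9. The gene lies towards the centromere of its arm, and 3 of the 5 other protein-coding genes within 250000 bp had a promoter peak. Its GC content within 100 bp of the canonical TSS was 25.9%, against a median of 41.3% over all promoters and 39.8% over those with a peak. The other 7 genes ranged from 32.3% at Utx to 50.2% at Kdm5. The part of base composition in the missing peak was not tested.

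**Figure D2:**
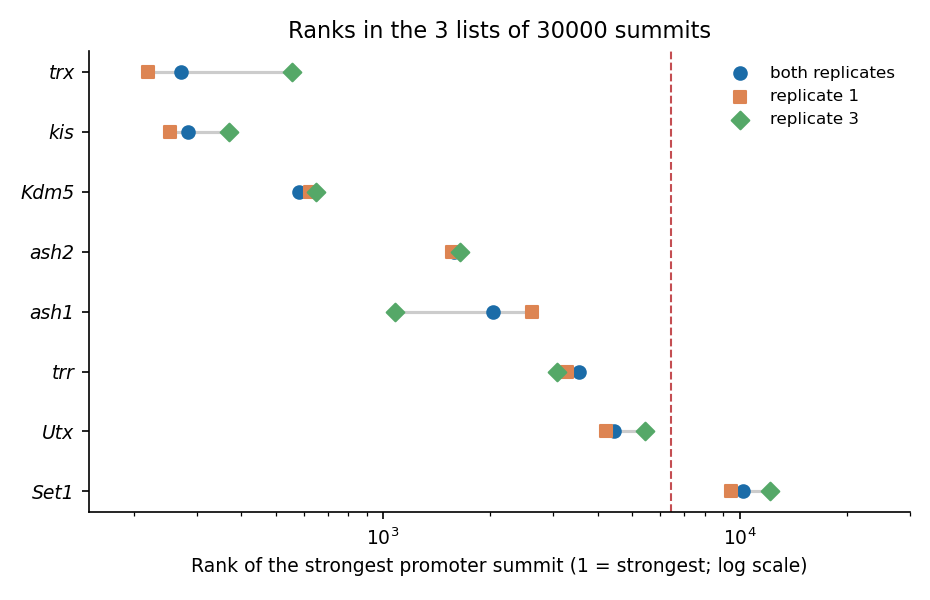
Rank of the strongest promoter summit of each gene (horizontal axis, log scale, 1 is strongest) in the list of both replicates and in each replicate; the dashed line marks rank 6415. Each of the 7 genes with a promoter peak is left of the line in all 3 lists and Set1 is right of it in all 3, with the widest replicate gaps by ratio at trx (219 and 554) and ash1 (2619 and 1079).

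The order of the genes was largely shared by the replicates. By rank, trx, kis and Kdm5 were the first 3 in the list of both replicates and in each replicate, though kis led in replicate 3. Utx and Set1 were the last 2 in every list. Between them trr came after ash1 and ash2 in every list, and ash1 ranked above ash2 in replicate 3 and below it in replicate 1. The strongest 6415 summits of replicate 3 alone gave a promoter peak to 7 of the 8 genes, against 43.3% of all genes. Those of replicate 1 alone also gave 7, against 41.7%. The count was 7 with a 250 bp window (38.6% of all genes), a 1000 bp window (45.3%), the canonical TSS alone (40.0%) and each summit counted for the nearest TSS alone (35.8%). Set1 was the gene without a peak each time. Among the stronger 3207 thresholded summits 5 genes kept a peak, against 27.4% of all genes, and trr and Utx were lost beside Set1.

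**Figure D3:**
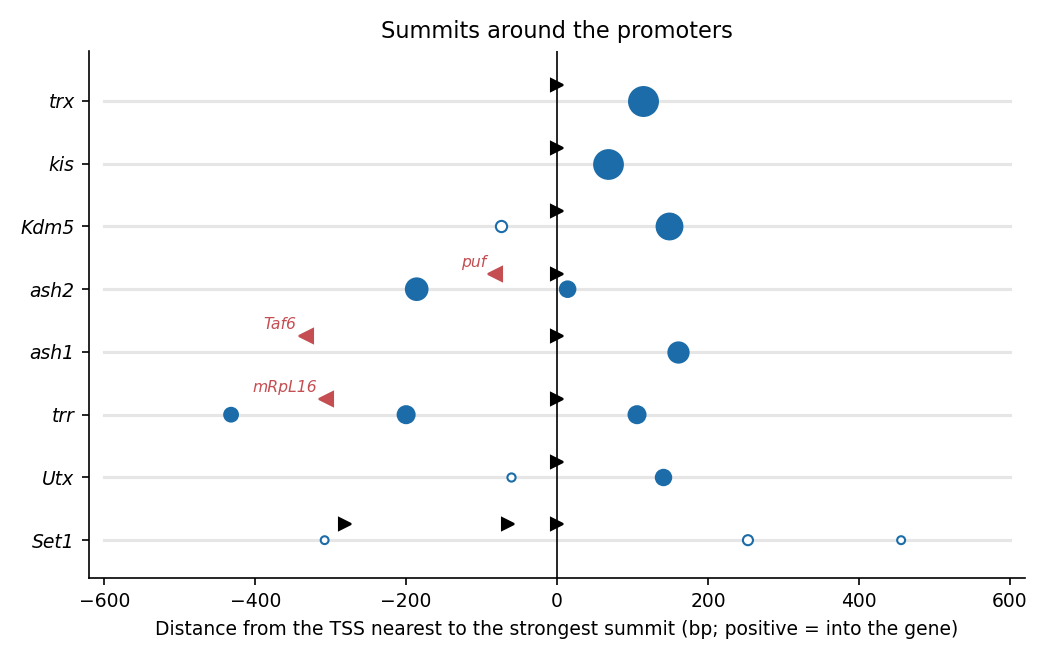
Summits of the list of both replicates around each promoter, by distance from the gene's TSS nearest to its strongest summit (horizontal axis, bp, positive into the gene). Filled circles are thresholded, open circles are not, area grows with signal, black triangles are starts of the gene and red triangles starts of the divergent neighbour; the strongest summits of ash2 and trr, at 186 and 200 bp upstream, lie towards puf and mRpL16.

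Within the promoters the strongest summit was downstream of the start in 5 of 7 genes, at 67 to 160 bp, and upstream in ash2 and trr. The median offset of the 7 was 114 bp, against 62 bp over all genes with a promoter peak, of which 65.6% had the strongest summit downstream. The 2 upstream summits were those nearer to the TSS of a divergent neighbour. At 3 of the 7 genes another protein-coding TSS lay within 500 bp of the strongest summit, against 45.5% of the 5889 genes with a promoter peak. At trx, kis, Kdm5 and Utx no other TSS lay that close. More than 1 thresholded promoter summit was present in 3 of the 7 genes (trr, ash2 and Utx), against 26.8% of all genes with a promoter peak.

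Alternative starts of the same gene differed. The 8 genes have 18 distinct annotated TSSs, and 10 had a thresholded summit within 500 bp, against 38.5% of the 19496 TSSs of all protein-coding genes. Of the 8 starts without one, 7 had a weaker summit in the list of both replicates, and the third Kdm5 start had none. That list includes background as well as peaks. The share over all starts without a thresholded summit was not counted, so the 7 cannot be set beside it. At kis and Kdm5 the first start carried the peak and the inner starts did not pass the threshold. At ash2 and Utx the peak at the first start was joined by a weaker one at an inner start. Of the 2035 genes with 2 or more starts and a promoter peak, 52.2% had a summit at every start, and of the list ash2 did. Genes with 2 or more starts had a promoter peak in 2035 of 3699 cases and those with 1 start in 3854 of 10135, and 5 of the 8 genes have more than 1.

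**Figure D4:**
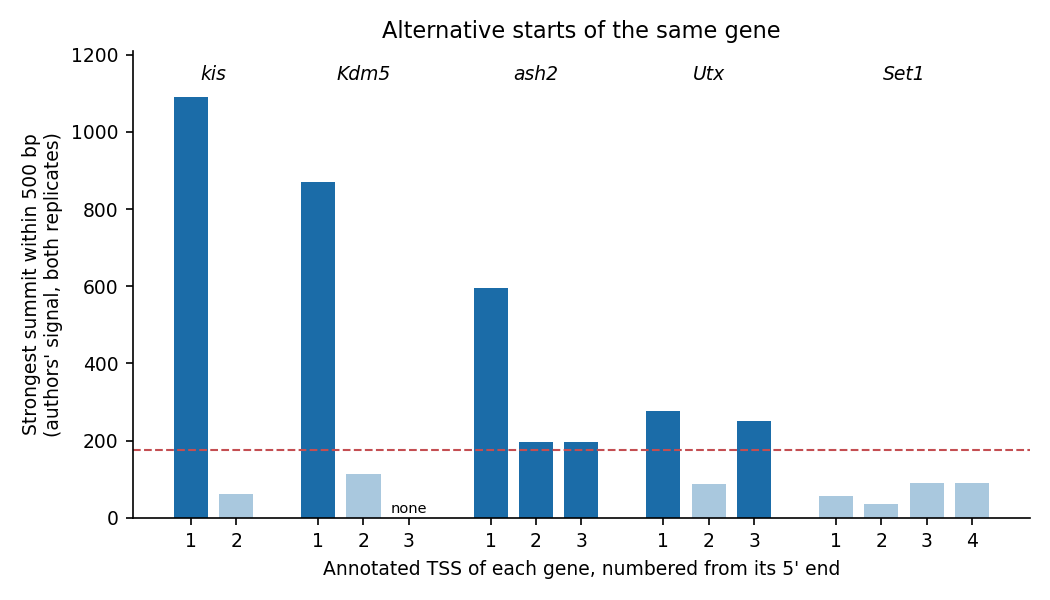
Strongest summit within 500 bp of each annotated start (vertical axis, the authors' signal in the list of both replicates) for the 5 genes with more than 1 start, numbered from the 5′ end; dark bars reach the thresholded list and the dashed line marks its lowest signal, 176.1. The first start is strongest at kis (1091), Kdm5 (870.3), ash2 (595.0) and Utx (277.4), and no start of Set1 reaches the line.

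The complexes in which the 8 proteins work were covered in the same way. Of 13 partner genes, 12 had a promoter peak, against the 42.6% of all genes, with a median signal of 466.5. This is close to the 467.9 over all genes with a promoter peak, and 6 of the 12 were above it. Among subunits shared between complexes, Hcf, a host cell factor gene on chromosome 4, had a signal of 872.1, wds (WD-repeat subunit) 454.2 and Dpy-30L1 283.8. Rbbp5, which encodes another core subunit, had no thresholded peak, with a summit of 139.3 at rank 7634. Rbbp5 was thus below the threshold in the list of both replicates, at ranks 9367 in replicate 1 and 5475 in replicate 3, and it passed in the strongest 6415 of replicate 3 alone. The genes of the Set1 complex, Wdr82 (539.2) and Cfp1 (409.8, a CpG-binding protein), both had peaks although Set1 did not. Mnn1, the menin gene of the Trx complex, had 709.6.

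Trr complex genes lay on both sides of the median of all genes. Pa1 had a signal of 743.3 and Ncoa6 of 723.4, whereas Ptip had 433.4 and Lpt, which corresponds to the amino-terminal part of the mammalian relatives of Trr, had 346.0. The Lpt summit lay 383 bp upstream and nearer to CG5339, and the Dpy-30L1 summit 403 bp upstream and nearer to EMC3. At Ncoa6 the nearest start was that of a non-coding gene, 8 bp from the summit. In the Ash1 complex Caf1-55 had 478.8 and MRG15 had 365.9, at a summit nearer to Tm1 than to MRG15.

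Other histone lysine methyltransferase, demethylase and CHD remodeller genes had a promoter peak in 16 of 18 cases, against the 42.6% of all protein-coding genes, with a median signal of 532.4 and 9 of 16 above the median of all genes. The strongest were Set8 (943.7), which encodes the H4K20 monomethyltransferase, and Set2 (873.5), which encodes an enzyme for H3K36 trimethylation. The 2 without a thresholded peak were NO66 (106.6, rank 9145), a JmjC domain gene, and Chd3 (101.9, rank 9445), a relative of Mi-2. Mi-2 itself had 659.8, at a summit nearer to Prp3, and Chd1 had 751.9. E(z), the Polycomb group methyltransferase whose mark Utx removes, had the weakest peak of this set at 188.6, rank 6107. None of the 31 partner and related genes reached the signals of trx and kis. Su(var)3-9 and eIF2gamma start at the same base, as do Kdm3 and CG8176, so peaks there count for both genes of each pair.

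**Figure D5:**
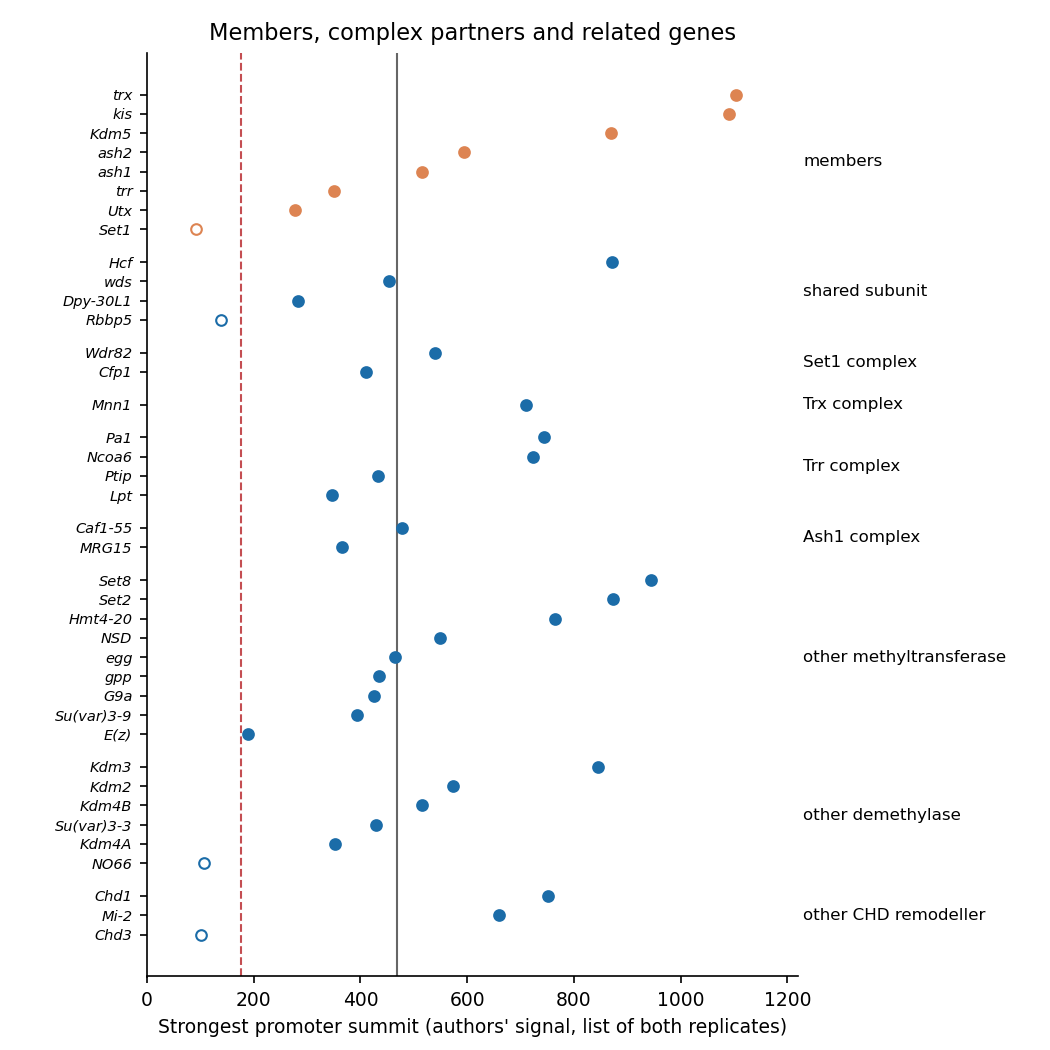
Strongest promoter summit (horizontal axis, the authors' signal in the list of both replicates) of the 8 genes (orange) and of 31 partner and related genes (blue), grouped by complex or enzyme class; open points are below the threshold, the dashed line is its lowest signal (176.1) and the grey line the median of all genes with a promoter peak (467.9). Set1, Rbbp5, NO66 and Chd3 are the 4 open points.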

How the data were processed

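Peak signals were deposited by the authors as narrowPeak lists. Per the file listings deposited with each sample, peaks and background were called for each replicate and for both together against 1 control alignment, on dm6, and the thresholded list derives from these 3. The aligner, caller, threshold and depth are not given in the sources used here. All 6415 thresholded summits were the strongest of the list of both replicates. Summits (region start plus offset, printed counting from 1) were matched to Ensembl release 115 starts within 500 bp, with Python 3.11.15 and pandas 2.3.3, leaving out 111 protein-coding genes of the histone cluster. The matching was tested on simulated positions. Offsets use the gene's nearest TSS. Motif windows span 201 bp around the canonical TSS, or around the summit where stated. The members, partner lists and motifs were chosen with earlier results of these data known. All members and complex partners are named, and of the 18 other enzyme genes the 2 strongest, those without a peak and a few chosen after their values were seen. Alternatives were windows of 250 and 1000 bp, the stronger 3207 summits, nearest or canonical TSSs and each replicate alone. No test was made.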

Additional observations from a re-analysis of the deposited data

How the results depend on the processing

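The count of 7 of 8 genes with a promoter peak held under 6 of the 7 alternatives and was 5 among the stronger 3207 summits. The 28 of 31 partner and related genes became 23 to 29. Assigning every summit to only its closest TSS moved the median signal of the 7 genes to 515.6 from 595.0, through ash2 (284.0 in place of 595.0). The median offset of 114 bp was 99 to 104 bp with 1 replicate left out. The strongest trr summit changed side, from 200 bp upstream in both replicates together (offset -200 bp) to 104 bp downstream without replicate 1, and it was at -115 bp without replicate 3. The cause was not tested. No paired analysis was possible because there is 1 group. With 2 replicates and no read depth, no error can be given for a single signal.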
